A study of Rattus norvegicus with 16 samples.

Results

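Expression of 9 complement genes was followed in the rat hippocampus 24 h after traumatic brain injury (TBI). The genes were C1qa, C1qb, C1s, C2, C3, Cfb, C5ar1, Serping1 and Cd55, and were read by the 11 probes, of 30367 on a single-colour rat array, whose annotated gene name is one of these. C2 and Cd55 had a pair of probes each, and the brighter of the pair stands for the gene. All 11 probes passed the filter for signal above background, and 8 of them were well above background on all 16 arrays. The exceptions were both Cd55 probes and, through 1 spot marked as an outlier by the scanner software, the Serping1 probe, which then has 15 usable arrays.

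The arrays came from whole hippocampi of adult male Sprague-Dawley rats, 1 rat per array. Naïve rats (n = 3) were not handled or anesthetized before tissue collection, Sham rats (n = 2) had anesthesia and surgery without injury, and TBI rats (n = 3) had a severe parasagittal fluid percussion injury. Injured rats also received PMI-006 (TBI+PMI, n = 3) or JM6 (TBI+JM6, n = 3), both by mouth, or estradiol by injection (TBI+E33, n = 2). The design names 3 rats for every group. Of the Sham and TBI+E33 rats, 2 each had an array analysed here. The sources do not say whether the TBI rats of the arrays received a vehicle.

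Complement is a cascade of plasma and tissue proteins that tags targets for removal and recruits inflammatory cells. The classical pathway opens with C1q, built from chains encoded by C1qa, C1qb and C1qc, and the protease encoded by C1s cleaves C2 and C4. C3 is where the pathways meet, and factor B (Cfb) feeds the alternative pathway that amplifies C3 cleavage. C5ar1 is the receptor for the fragment C5a on myeloid cells, Serping1 encodes the C1 inhibitor, and Cd55 encodes a membrane protein that speeds the decay of the C3 convertases. In the brain, microglia are the main source of C1q.

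The 4 slides were scanned in 2 sessions, the first with the Naïve, Sham and TBI arrays and the second with all drug-treated arrays. Between 16282 and 18245 probes were well above background on the arrays of the first session and between 20259 and 24984 on those of the second. Drug treatment and scanning session cannot be told apart in any comparison of a drug group with TBI. The deposited files also carry a number for each array, whose meaning is not stated. It runs from 1 to 8 for the Naïve and TBI arrays and TBI+PMI 1 and 2, and is 230 or higher for the Sham, TBI+JM6 and TBI+E33 arrays and TBI+PMI 3. Sham arrays therefore differ in this number from both TBI and Naïve arrays, while TBI and Naïve arrays do not differ in it. Levels below are the log2 of the intensity over the array's 75th percentile (taken among probes above background), so that 0 is the percentile itself and a step of 1 is a doubling.

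The following 60-base probe sequences, written as in the array annotation, belong to 5 genes discussed below. None of the letters is set in capitals, because no part of a probe is singled out. The positions of the probes are those of the rat build rn4. Those of C1qa and C1qb lie on the minus strand of chromosome 5 (155662578 to 155662637 and 155647530 to 155647589), that of C1s on the minus strand of chromosome 4 (160736725 to 160736784), and those of C2 and Cfb on the plus strand of chromosome 20 (4071119 to 4071178 and 4071504 to 4071563 for C2, 4077743 to 4077802 for Cfb). The probe of Serping1 lies on the minus strand of chromosome 3 (67968812 to 67968871) and those of Cd55 on the minus strand of chromosome 13 (43322246 to 43322305 and 43336846 to 43336905). The C3 probe was placed on unassembled sequence and the C5ar1 probe had no position. An exon annotation of rn4 was not used here.
C1qa: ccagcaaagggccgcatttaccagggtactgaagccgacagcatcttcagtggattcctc
C1s: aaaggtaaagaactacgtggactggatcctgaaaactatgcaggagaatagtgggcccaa
C2, brighter probe: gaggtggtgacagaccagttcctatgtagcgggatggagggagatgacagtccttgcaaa
C2, dimmer probe: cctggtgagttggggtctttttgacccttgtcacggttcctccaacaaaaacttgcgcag
C3: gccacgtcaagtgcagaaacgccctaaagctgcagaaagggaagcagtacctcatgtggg
Cd55, dimmer probe: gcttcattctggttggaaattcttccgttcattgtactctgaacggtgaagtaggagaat

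After injury, the receptor gene C5ar1 stood out among the members. It was 8.20-fold higher in TBI than in Sham rats and 5.48-fold higher than in Naïve rats. C3 also passed the test against Sham rats and C1s and Serping1 against Naïve rats, and no member fell in either comparison. The comparison with Naïve rats also carries anesthesia and surgery, which cannot be told apart from injury there. In Sham vs. Naïve, C1s and Serping1 had log2 fold changes of 0.60 and 0.37, neither called. Differences between groups were tested with limma, in 1 model over all 16 arrays, and p-values were adjusted over all probes tested by the Benjamini-Hochberg method. In whole tissue, a change in the number of cells of a type and a change in RNA per cell cannot be told apart, and the p-values measure the spread between these rats only.

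**Figure D1:**
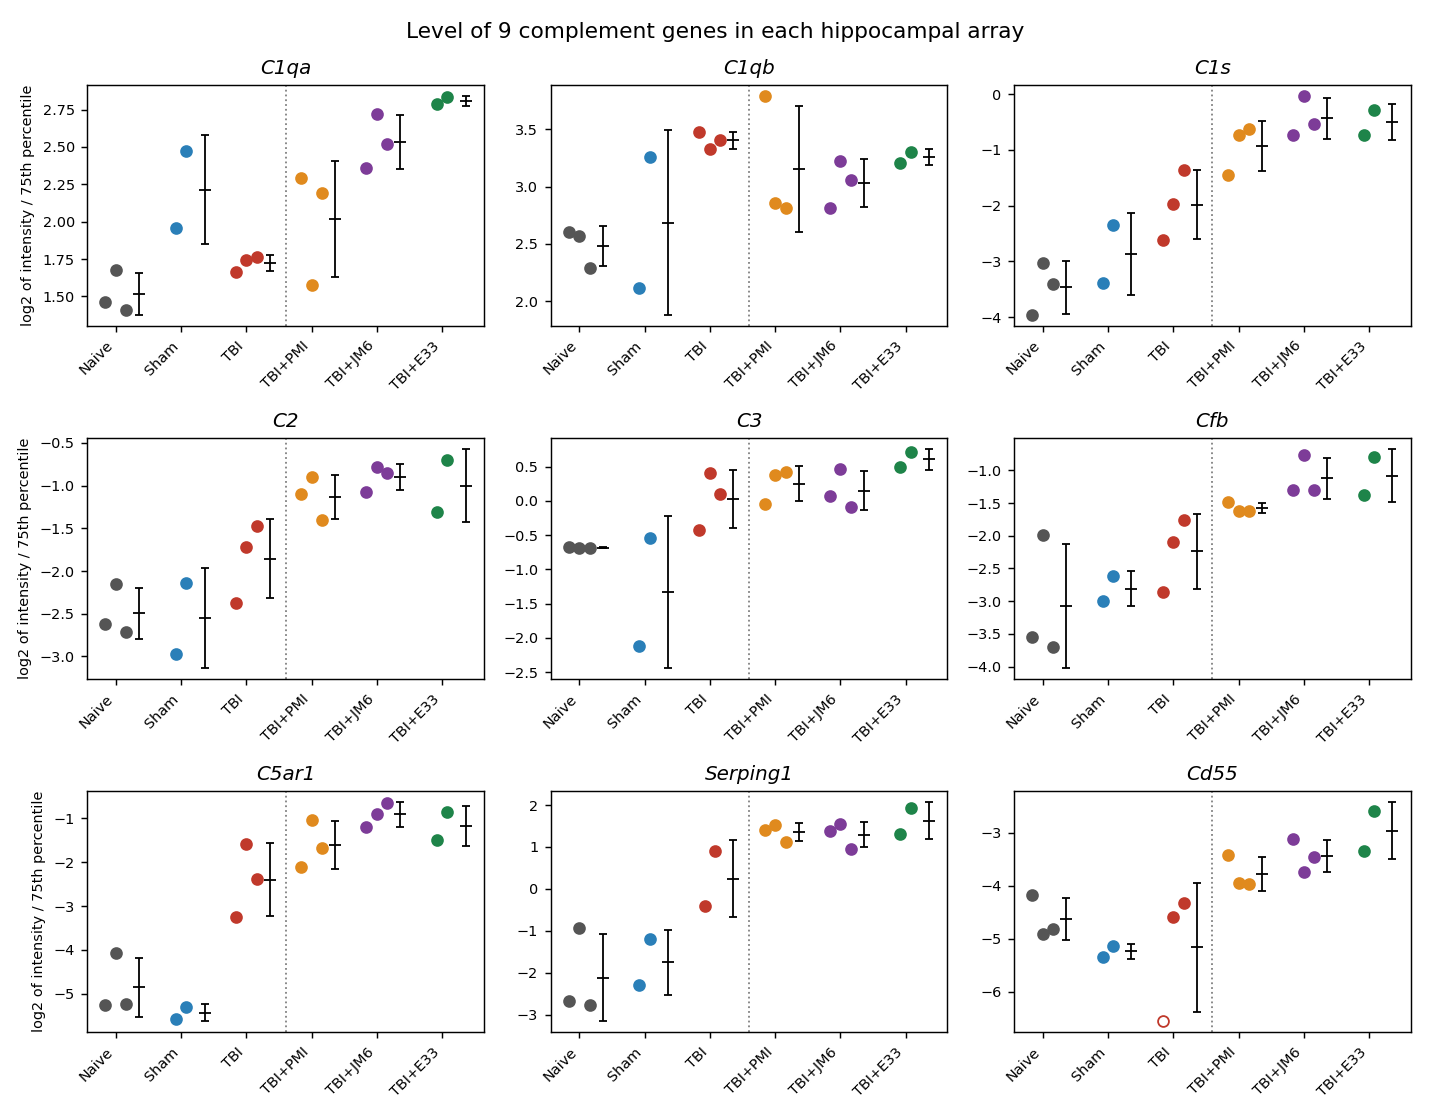
Levels of the 9 complement genes on the 16 arrays, as log2 of intensity over the 75th percentile (y axis, own scale in each panel), by group. Points are arrays, open where the probe was not well above background, black bars give the mean and SD, and the dotted line separates the scanning sessions. C5ar1 lies between -5.58 and -4.08 in Naïve and Sham rats and between -3.25 and -1.58 in TBI rats.

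C5ar1, the C5a receptor, had levels of -5.25, -4.08 and -5.23 in the Naïve rats and -5.58 and -5.30 in the Sham rats. In TBI rats they were -3.25, -1.58 and -2.38. All TBI arrays lay above all Naïve and Sham arrays, and TBI 1 was the lowest of the 3. The log2 fold change was 3.04 (SE 0.48, limma adjusted p = 0.00693) in TBI vs. Sham and 2.45 (SE 0.43, limma adjusted p = 0.0106) in TBI vs. Naïve. With any 1 rat of the compared groups left out, it stayed between 2.63 and 3.46 against Sham and between 2.04 and 2.88 against Naïve, and C5ar1 was called each time (largest adjusted p against Sham 0.0469). With normexp background correction it was 1.83 against Sham (adjusted p = 0.119) and 1.54 against Naïve (adjusted p = 0.173), and neither was called. The calls were also lost with limma on the 2 groups alone, with the slide as a fixed block and with the methods' t-test after adjustment (adjusted p from 0.128 to 0.501). On the slide that holds all TBI arrays and Naïve 3, the difference was 2.83.

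C3, the central component, had levels of -0.67, -0.69 and -0.68 in Naïve rats, -2.12 and -0.55 in Sham rats and -0.42, 0.41 and 0.09 in TBI rats. The Naïve arrays were nearly equal, and Sham 1 was far below every other array. C3 was 1.36 higher on the log2 scale in TBI than in Sham rats (SE 0.37, limma adjusted p = 0.0403). Without Sham 1 the value was 0.58 with an adjusted p of 0.337, so the call rests on that array, and it was also lost without TBI 2 or TBI 3. Sham 1 had the highest summed level of choroid plexus markers among the arrays of the first session (123.4, against 0.1964 to 77.59 on the others), and the part of this in the C3 value was not tested. Against Naïve rats the log2 fold change of C3 was 0.71 (SE 0.34, limma adjusted p = 0.250), with no overlap between the 3 arrays of each group.

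The stretch just upstream of the C3 start in the RefSeq build GRCr8 is shown because C3 is the point where the pathways join. It holds letters that match loose C/EBP and kappa B patterns. The stretch of 85 bases lies on the minus strand at chr9:2201379-2201463, at positions -124 to -40 relative to the start. Capitals mark 1 match to the C/EBP motif TTGCNNAA and 1 match to the kappa B motif GGGANNNNCC, in which N is any base. The letters at N were left free, so a match need not be a full consensus site.
C3 upstream: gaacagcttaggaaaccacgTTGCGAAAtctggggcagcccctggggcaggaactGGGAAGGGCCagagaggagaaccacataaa
Both strands were searched over the 250 bases before each start. The kappa B motif was found in 16.4% of 33469 promoters and the C/EBP motif in 9.22%. Of the members, C1qa, C1qb, C3 and Cd55 were in the promoter table. The kappa B letters were found for C1qb, C3 and Cd55, and the C/EBP letters for C3. The matches are letters in a window and were not set against any binding data.

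Serping1, the gene of the C1 inhibitor, had levels of -2.67, -0.92 and -2.77 in Naïve rats and -2.31 and -1.21 in Sham rats. TBI 1 and TBI 2 had levels of -0.40 and 0.89, and the spot of TBI 3 was left out of the fit because of its outlier mark, with a level of 0.31. The TBI arrays lay above all Naïve and Sham arrays. The log2 fold change was 2.37 (SE 0.55, limma adjusted p = 0.0344) against Naïve rats, and 2.0 (SE 0.61, limma adjusted p = 0.0596) against Sham rats, where it missed the threshold. With the spot of TBI 3 kept, a choice made after seeing the data, the value against Sham was 2.08 with an adjusted p of 0.0356. The call against Naïve was lost without Naïve 1, Naïve 3, TBI 2 or TBI 3 (log2 fold changes of 1.72 to 2.37). Naïve 2, the highest of the Naïve arrays for Serping1, was also the Naïve array with the most choroid plexus signal (77.59, against 2.354 and 2.982), and the part of this in the spread was not tested.

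Cd55, which encodes the convertase decay factor, showed no such shift. Its brighter probe had levels of -4.18, -4.90 and -4.82 in Naïve rats, -5.33 and -5.14 in Sham rats and -6.55, -4.59 and -4.32 in TBI rats. TBI 1 was not well above background. In TBI vs. Sham its log2 fold change was 0.08 (95% CI -1.06 to 1.22), and in TBI vs. Naïve it was -0.52 (-1.54 to 0.49). The dimmer probe was well above background on 8 arrays, none of them Naïve or TBI and 1 of them Sham.

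C1qa and C1qb encode chains of the same C1q protein, and neither was called after injury. C1qa had levels of 1.46, 1.68 and 1.41 in Naïve rats, 1.96 and 2.47 in Sham rats and 1.66, 1.74 and 1.76 in TBI rats. Both Sham arrays were above every Naïve and TBI array. The log2 fold change of C1qa was -0.49 (SE 0.23, limma adjusted p = 0.191) in TBI vs. Sham and 0.21 (SE 0.20, limma adjusted p = 0.622) in TBI vs. Naïve. C1qb had levels of 2.6, 2.57 and 2.29 in Naïve rats, 2.12 and 3.26 in Sham rats and 3.48, 3.33 and 3.41 in TBI rats. The TBI arrays lay above all others of the first session. Its log2 fold change was 0.72 (SE 0.33, limma adjusted p = 0.189) in TBI vs. Sham and 0.92 (SE 0.29, limma adjusted p = 0.0956) in TBI vs. Naïve, and neither value passed the test.

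The ratio of C1qb to C1qa within an array does not change when the array is divided by a single number, as in the main scaling. It can change under quantile normalization or another background correction. Only differences of the ratio between groups can be read, since probes differ in brightness. This ratio was examined after the levels were seen. Its log2 was 1.14, 0.89 and 0.88 in Naïve, 0.16 and 0.79 in Sham and 1.81, 1.58 and 1.65 in TBI rats. It was higher in each TBI rat than in any Naïve or Sham rat, by 0.71 on average against Naïve (exact permutation test, two-sided p = 0.1, the smallest that 3 against 3 allow) and by 1.21 against Sham (exact permutation test, two-sided p = 0.1, the smallest that 3 against 2 allow). The uninjured groups were also apart, with both Sham rats below every Naïve rat. The difference in Sham vs. Naïve was -0.50 (exact permutation test, two-sided p = 0.1, the smallest that 2 against 3 allow). At these floors the p-values say no more than that the arrays did not overlap. The ratio of the other chain, C1qc, to C1qa shares its denominator with the first ratio and is no independent measure. It had values of -0.82, -1.11 and -0.73 in Naïve, -1.46 and -0.90 in Sham and 0.29, -0.02 and 0.23 in TBI rats. It was higher by 1.05 against Naïve and 1.34 against Sham (exact permutation tests, two-sided p = 0.1 for each). In Sham vs. Naïve the difference of this ratio was -0.29 (exact permutation test, two-sided p = 0.4).

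**Figure D2:**
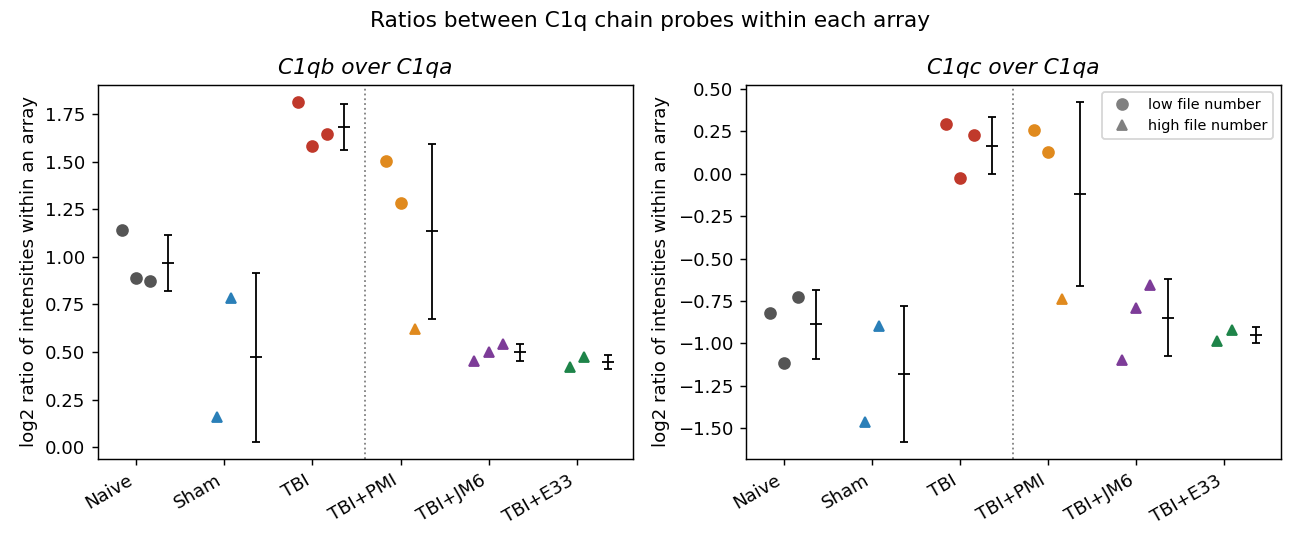
Log2 ratio of C1qb to C1qa (left) and of C1qc to C1qa (right) within each array, by group. Circles are arrays with file numbers from 1 to 8, triangles those with numbers of 230 or higher, black bars give the mean and SD, and the dotted line separates the scanning sessions. TBI+PMI 1 and 2 lie near the TBI arrays, and TBI+PMI 3 lies nearer to the TBI+JM6 and TBI+E33 arrays.

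In the drug groups, all scanned in the second session, the C1qb to C1qa ratio was 1.5 and 1.28 in TBI+PMI 1 and 2, and 0.62 in TBI+PMI 3. The TBI+JM6 arrays had 0.45, 0.50 and 0.54 and the TBI+E33 arrays 0.42 and 0.47. Among arrays with numbers from 1 to 8, the 5 injured rats had 1.28 to 1.81 and the 3 uninjured rats 0.88 to 1.14, although 2 of the injured rats were scanned in the second session. Among arrays with numbers of 230 or higher, the 6 injured rats had 0.42 to 0.62, between the 2 Sham rats (0.16 and 0.79). The ratio of C1qc to C1qa ran from -0.02 to 0.29 in the injured and from -1.11 to -0.73 in the uninjured rats with low numbers. With high numbers it ran from -1.10 to -0.66 in the injured rats and was -1.46 and -0.90 in the Sham rats. The file number differs within a single group, TBI+PMI, and there by 1 array. The drugs, the file number and the session cannot be told apart in the contrast of TBI+JM6 or TBI+E33 with TBI. None of the 3 probes was saturated on any array.

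C1s, the protease of the C1 complex, had levels of -3.96, -3.03 and -3.41 in Naïve, -3.39 and -2.34 in Sham and -2.61, -1.97 and -1.36 in TBI rats. The TBI arrays lay above all Naïve arrays and overlapped the Sham arrays. The log2 fold change was 1.49 (SE 0.38, limma adjusted p = 0.0443) in TBI vs. Naïve and 0.88 (SE 0.43, limma adjusted p = 0.211) in TBI vs. Sham. The call against Naïve did not hold under quantile normalization (1.26, adjusted p = 0.0719), and it was kept in 1 of the 6 fits that leave out a Naïve or TBI rat, that without TBI 1.

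C2, the substrate of that protease, had levels of -2.62, -2.16 and -2.71 in Naïve, -2.97 and -2.14 in Sham and -2.37, -1.72 and -1.47 in TBI rats. TBI 1 lay within the range of the uninjured rats and the other TBI arrays above it. C2 had a log2 fold change of 0.70 (SE 0.32, limma adjusted p = 0.187) against Sham and 0.64 (SE 0.28, limma adjusted p = 0.221) against Naïve. The dimmer C2 probe gave 0.53 and 0.42, with the same direction and no call.

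Cfb, the alternative pathway protease, had levels of -3.54, -1.98 and -3.70 in Naïve, -3.00 and -2.62 in Sham and -2.87, -2.10 and -1.76 in TBI rats. Naïve 2 was far above the other Naïve arrays, as it was for Serping1. Its log2 fold change was 0.57 (SE 0.45, limma adjusted p = 0.458) against Sham and 0.83 (SE 0.40, limma adjusted p = 0.265) against Naïve, and the groups overlapped. Without Naïve 2 the value against Naïve was 1.38 (limma adjusted p = 0.0355), past the threshold.

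Counted over the genes, 2 of the 9 members rose and 0 fell in TBI vs. Sham (C5ar1 and C3), where 2.93% of all probes tested were called higher. In TBI vs. Naïve 3 rose and 0 fell (C5ar1, C1s and Serping1), where 2.98% of all probes were called higher. The arrays did not overlap, with TBI above, for 4 members in TBI vs. Sham (17.7% of all probes) and for 5 in TBI vs. Naïve (12.8%). The median log2 fold change of the 9 was 0.72 against Sham and 0.83 against Naïve, and that of all probes tested was -0.03 and 0.04. Neither C3 nor C1s was called in both comparisons. The TBI arrays serve in both comparisons. In TBI vs. Sham, injury and file number cannot be told apart. Both Sham arrays also lay on 1 slide and all TBI arrays on another, linked only by the Naïve arrays, which lay on both.

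**Figure D3:**
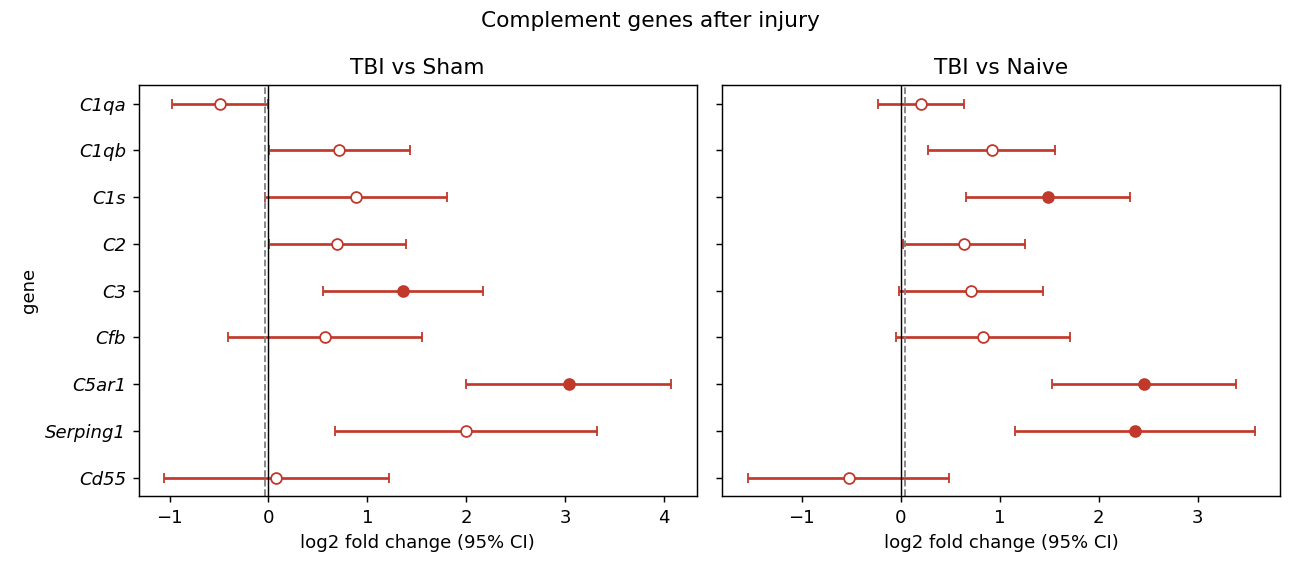
Log2 fold change of each complement gene (x axis) with its 95% CI in TBI vs. Sham (left) and TBI vs. Naïve (right). Filled points passed the test, open points did not, and the dashed line is the median of all probes tested. C5ar1 has the highest value in both panels, 3.04 and 2.45.

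The comparison of Sham with Naïve rats gave no call among the members. Sham and Naïve arrays differ in file number, so surgery and file number cannot be told apart there. In Sham vs. Naïve 0 of the 9 passed after adjustment in limma, 1 had an unadjusted p under 0.05, and 8.08% of all probes were called in either direction. The member with the smallest p was C1qa, higher in Sham by 0.70 (SE 0.23, limma adjusted p = 0.0800). C3 and C5ar1 had values of -0.65 and -0.58. Without Sham 2, which leaves Sham 1 alone, C3 was called lower in Sham (-1.44, limma adjusted p = 0.0458). The difference of C1qa between Sham and Naïve arrays on the slide that holds both was 0.65.

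Of the wider complement list, 28 of 48 other genes had a probe that could be tested, and receptor genes made up most of the calls. C3ar1, the receptor for the fragment C3a, was well above background on every TBI array and on no Sham or Naïve array. It was at least 3.35-fold higher in TBI than in Sham rats (limma adjusted p = 0.00982) and at least 2.78-fold higher than in Naïve rats (limma adjusted p = 0.00247). These bounds set the TBI mean against the dimmest signal called above background on each Sham or Naïve array. Itgb2, the beta chain of complement receptor 3, rose by 0.88 against Sham (limma adjusted p = 0.0341) and by 1.66 against Naïve (limma adjusted p = 0.00272). Its alpha chain Itgam rose by 1.40 against Sham (limma adjusted p = 0.0149) and had a value of 0.88 against Naïve (limma adjusted p = 0.0739). C1qc rose against Naïve by 1.26 (limma adjusted p = 0.0371), with levels of 0.64, 0.56 and 0.68 in Naïve, 0.49 and 1.58 in Sham and 1.96, 1.72 and 1.99 in TBI rats.

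Of the lectin pathway, the protease genes Masp1 and Masp2 could be tested. So could Fcnb and Colec12, which were not called among Naïve, Sham and TBI rats. Masp1 had levels of -2.09, -1.91 and -2.08 in Naïve, -1.17 and -0.86 in Sham and -1.43, -2.25 and -2.11 in TBI rats. It fell by 0.91 in TBI vs. Sham (limma adjusted p = 0.0293). In Sham rats it was higher than in Naïve rats by 1.0 (limma adjusted p = 0.0203). TBI and Naïve rats differed by 0.09 (limma adjusted p = 0.857). The Sham arrays differ in file number from those of both other groups. Masp2 passed the test in TBI vs. Sham in the opposite direction, with higher signal in TBI, but its probe was not well above background on any array of these groups, so no fold is given. In all, 4 of the 28 genes were called higher and 1 lower in TBI vs. Sham, where 2.93% of all probes were higher and 6.49% lower. In TBI vs. Naïve 3 were higher and 0 lower, where 2.98% and 1.73% of all probes were. Their median log2 fold changes were 0.20 and 0.18. None of the 10 regulator genes or of the 4 terminal component genes tested was called in these comparisons, which at such shares is no result about these lists. Against TBI, 11, 18 and 18 of the 28 genes were called higher in TBI+PMI, TBI+JM6 and TBI+E33 rats, beside 56.7%, 69.9% and 70.2% of all probes, and they are not named singly.

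Cell-type markers also differed between Naïve, Sham and TBI rats. Of all probes, 2.93% were called higher and 6.49% lower in TBI vs. Sham. Against Naïve rats, the TBI shares were 2.98% and 1.73%. Between Sham and Naïve rats, 8.08% of all probes were called in either direction. At such shares, 1 called marker is no result about its list. The summed level of 10 microglia markers was 13.52 to 15.39 in Naïve, 11.76 to 18.68 in Sham and 16.98 to 24.56 in TBI rats. In TBI vs. Sham 3 of the 10 rose (Itgam, which is also on the complement list, Cd68 and Tyrobp) and 2 fell (P2ry12 and Tmem119, which mark resting microglia). In TBI vs. Naïve 1 of the 10 rose (Cd68) and 0 fell. The summed level of the 11 leukocyte markers tested was 0.1645 to 0.2029 in Naïve, 0.3418 to 0.5207 in Sham and 0.7162 to 3.425 in TBI rats, with 4 of 11 higher in TBI vs. Sham, 6 of 11 in TBI vs. Naïve and Mpo above background on no array. TBI 2, the highest TBI array for C5ar1, C3 and Serping1, also had the highest leukocyte sum of the first session, and TBI 1, the lowest for those genes, the lowest sum of the TBI arrays. The part of these cells in the values of the complement genes was not tested. The neuron markers were well above background on every array, with 7 of 8 having a probe. In TBI vs. Sham 3 of these 7 fell (median -0.93 on the log2 scale), and in TBI vs. Naïve 0 were called (median -0.01). In Sham vs. Naïve all 7 had positive values, 3 of them called (median 0.94). Of 6 oligodendrocyte markers, 3 fell in TBI vs. Sham (median -1.02) and 0 in TBI vs. Naïve (median -0.32). In Sham vs. Naïve 1 of the 6 was called higher (median 0.63). The falls of neuron and oligodendrocyte markers were called only against Sham rats, whose arrays differ in file number from the TBI arrays. Injury and file number cannot be told apart in these falls. Of 7 markers of meninges and fibroblasts, 1 fell in each comparison (medians -1.13 and -1.49). Of 8 astrocyte markers, 0 were called in TBI vs. Sham, and 2 rose and 1 fell in TBI vs. Naïve (medians 0.08 and -0.18). Of 7 endothelial markers, 1 fell in TBI vs. Sham and 0 were called in TBI vs. Naïve (medians -0.23 and 0.11). The part of these shifts in the complement values was not tested.

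In the drug groups, most members were higher than in TBI rats, but so were most probes of the array. The members called higher numbered 3 of 9 in TBI+PMI vs. TBI (C1s, C2 and Cd55), where 56.7% of all probes were called higher. They numbered 6 of 9 in TBI+JM6 vs. TBI, where 69.9% were, and 6 of 9 in TBI+E33 vs. TBI, where 70.2% were. The latter 6 were C1qa, C1s, C2, Cfb, C5ar1 and Cd55 in both comparisons. The median log2 fold change of the members was 0.72, 1.05 and 1.16, beside 0.79, 0.99 and 1.08 for all probes, so the shares of the members were near or below the background. All these comparisons share the TBI arrays.

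Cd55 was called against TBI in each drug group. Its levels were -3.41, -3.95 and -3.97 in TBI+PMI, -3.12, -3.74 and -3.44 in TBI+JM6 and -3.34 and -2.58 in TBI+E33 rats, all above the TBI arrays. The log2 fold changes were 1.38 (SE 0.47, limma adjusted p = 0.0244), 1.72 (SE 0.47, limma adjusted p = 0.00604) and 2.20 (SE 0.53, limma adjusted p = 0.00279). They rest in part on TBI 1, where the probe was not well above background. Without TBI 1 they were 0.68 (adjusted p = 0.0781), 1.02 (0.0113) and 1.5 (0.00219), and 0, 5 and 3 members in all were called. Under quantile normalization they were -0.01, 0.14 and 0.57 and none was called. The dimmer Cd55 probe was well above background on 2 of 3 TBI+PMI, 3 of 3 TBI+JM6 and 2 of 2 TBI+E33 arrays, against 0 of 3 TBI arrays. It was at least 1.60-fold higher in TBI+PMI, 2.20-fold in TBI+JM6 and 1.26-fold in TBI+E33 than in TBI rats, of which the last did not pass the test.

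C5ar1 had levels of -2.12, -1.03 and -1.67 in TBI+PMI, -1.20, -0.89 and -0.64 in TBI+JM6 and -1.50 and -0.86 in TBI+E33 rats. The TBI+PMI levels overlapped those of TBI rats, and the TBI+JM6 and TBI+E33 levels lay above them. The log2 fold changes were 0.80 (SE 0.43, limma adjusted p = 0.127), 1.49 (SE 0.43, limma adjusted p = 0.00799) and 1.23 (SE 0.48, limma adjusted p = 0.0360), and 0.05, 0.64 and 0.30 under quantile normalization, where none was called.

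C1s had levels of -1.45, -0.74 and -0.62 in TBI+PMI, -0.74, -0.03 and -0.53 in TBI+JM6 and -0.74 and -0.28 in TBI+E33 rats, and its log2 fold changes were 1.04, 1.55 and 1.47. The levels of C2 were -1.10, -0.90 and -1.41, -1.08, -0.78 and -0.85, and -1.30 and -0.70 in the same order, with log2 fold changes of 0.72, 0.95 and 0.85. Both genes were called in all 3 comparisons, and neither was called under quantile normalization. For C2 the values were then 0.05, 0.14 and -0.02. The levels of Cfb were -1.48, -1.62 and -1.61, -1.31, -0.76 and -1.30, and -1.37 and -0.79, with log2 fold changes of 0.67, 1.12 and 1.16, the last 2 called.

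C3 and Serping1 were not called in any drug group. C3 had levels of -0.05, 0.38 and 0.43 in TBI+PMI, 0.07, 0.46 and -0.09 in TBI+JM6 and 0.50 and 0.71 in TBI+E33 rats. Its log2 fold changes of 0.22, 0.12 and 0.58 lay below the median of all probes, and under quantile normalization they were -0.30, -0.57 and -0.09. Serping1 had levels of 1.41, 1.53 and 1.12, 1.38, 1.56 and 0.95, and 1.32 and 1.94, all above both TBI arrays that entered the fit. Its log2 fold changes were 1.11, 1.05 and 1.38.

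C1qa and C1qb again differed. C1qa had levels of 2.29, 1.58 and 2.19 in TBI+PMI, 2.36, 2.72 and 2.52 in TBI+JM6 and 2.79 and 2.83 in TBI+E33 rats. Its log2 fold changes were 0.30, 0.81 and 1.09, the last 2 called. C1qb had levels of 3.79, 2.86 and 2.81, 2.81, 3.22 and 3.06, and 3.21 and 3.31, and was the only member with a negative value in every drug group (-0.25, -0.37 and -0.15, none called). With arrays scaled to the 75th percentile of every probe, dim ones included, C1qb was called lower in all 3 (-0.90, -1.16 and -0.98, adjusted p = 0.0240, 0.00526 and 0.0239) and was the only member called. Of all probes 12%, 14.6% and 12.1% were called lower there. After quantile normalization, which sets the distribution of all arrays equal, C1qb in TBI+JM6 vs. TBI was the only member called in these comparisons, lower by 0.82. All probes called in either direction then made up 19.2%, 27.2% and 20.4% for PMI-006, JM6 and estradiol, and the called members numbered 0, 1 and 0 of 9.

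**Figure D4:**
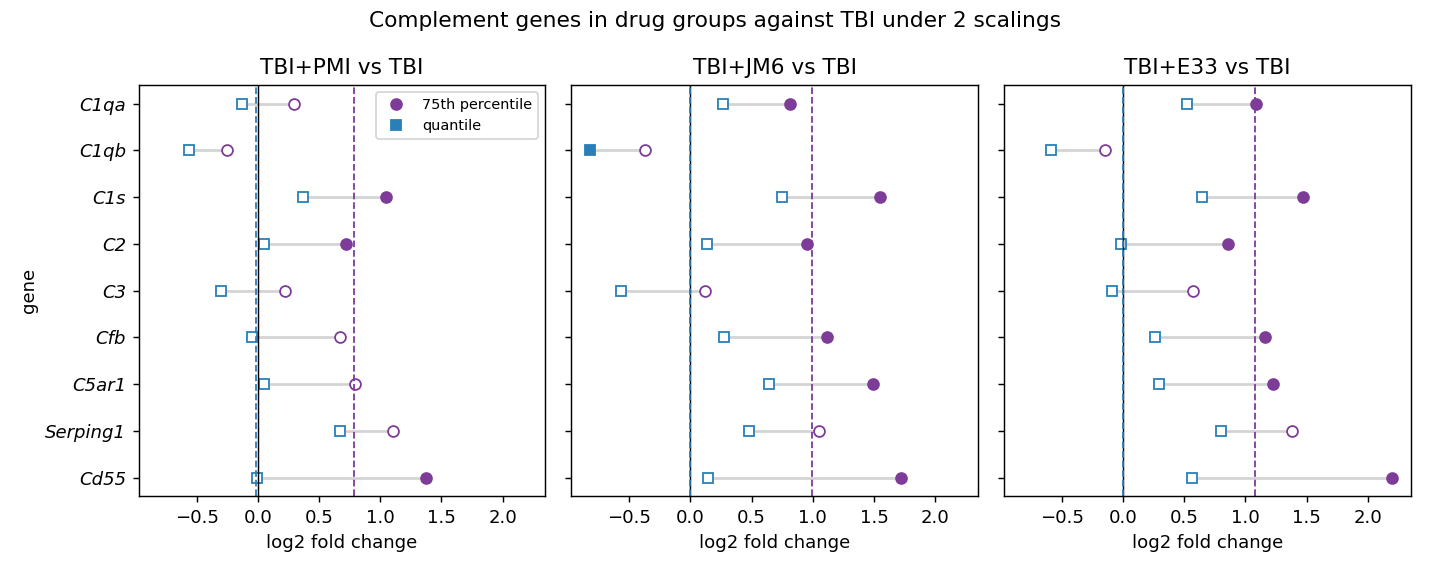
Log2 fold change of each complement gene against TBI in the 3 drug groups (x axis), with arrays scaled to the 75th percentile (circles) or quantile normalized (squares). Filled symbols passed the test and dashed lines are the medians of all probes under the same scaling. The quantile values lie to the left of the percentile values for every gene, with C1qb in TBI+JM6 at -0.82.

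The drug groups were scanned in 1 session. File number still differs between them, since TBI+PMI 1 and 2 have low numbers and all TBI+JM6 and TBI+E33 arrays high ones, and in the pairs with TBI+PMI it cannot be fully told apart from the drug. Slide differs too, since all TBI+PMI arrays lay on 1 slide and both TBI+E33 arrays on the other. Only the TBI+JM6 arrays, which lay on both, link these slides. No member was called in any of the 3 pairs by limma, where 0.0131% (TBI+JM6 vs. TBI+PMI), 0.0175% (TBI+JM6 vs. TBI+E33) and 0.11% (TBI+PMI vs. TBI+E33) of all probes were called in either direction. At an unadjusted p under 0.05 the counts of members were 1, 0 and 1, beside 8.84%, 2.81% and 15% of all probes, and the member was C1qa both times. It was higher in TBI+JM6 than in TBI+PMI by 0.51 (95% CI 0.08 to 0.95, limma adjusted p = 0.494) and lower in TBI+PMI than in TBI+E33, with a log2 fold change of -0.79 (95% CI -1.28 to -0.30, limma adjusted p = 0.155). The log2 fold changes of all members ran from -0.12 to 0.70, from -0.48 to 0.27 and from -0.82 to -0.10 in the 3 pairs. The intervals of C5ar1 were -0.23 to 1.63, -0.77 to 1.31 and -1.47 to 0.61, so that differences of over 2-fold lie within the interval of each pair. The agents were not given at a matched dose.

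Across the arrays, after the mean of each session was subtracted, C5ar1 and Serping1 had the highest correlation of the members (r = 0.84, 15 arrays, without TBI 3), followed by C1s and C2 (r = 0.82) and C2 and Cfb (r = 0.82) over 16 arrays. C1qa was unrelated to C3 and C5ar1 (r = -0.01 and -0.04) and Cd55 to Serping1 (r = -0.14). Among all other tested genes, the pattern of C5ar1 was most like those of Rab32 (r = 0.97), Plau (r = 0.96) and Ccl3 (r = 0.95), and that of C3 most like those of Pola2 (r = 0.94), Grn (r = 0.90) and Pfkfb1 (r = 0.90). These values describe 16 arrays that share groups, and part of each r comes from the difference between groups.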

How the data were processed

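The members and the gene lists were chosen with earlier results of these data known. The deposited scanner files come from Agilent Feature Extraction 9.5.3.1, and their intensities were background subtracted and detrended per array, without scaling between arrays. The authors' deposited matrix is given as a linear ratio to the 75th percentile, and was used as an alternative. Its columns shared one distribution (median 0.14), as they do after quantile normalization. It is therefore no separate check from that setting.

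Intensities of 42877 non-control spots, without outlier spots, were averaged by probe, divided by the 75th percentile of the probes well above background on each array, and log2 transformed. Probes well above background on all arrays of at least 1 of 6 groups (22827 of 30367) were tested. A limma model was fitted to all 16 arrays (10 residual degrees of freedom), and a two-sided p was adjusted over all probes (Benjamini-Hochberg), with calls at under 0.05. The number of arrays limits the precision, and the depth is given by the probes above background. The amplification kit of each array is not given in the sources used here and was not modelled. All members were named, as were genes of the wider complement list called among Naïve, Sham and TBI rats or between drugs and, for members called in TBI vs. Sham, the 3 genes most like them. The model was tested on simulated data. Alternatives were normexp correction (offset 50), quantile normalization, the percentile over all probes, other filters, the authors' matrix, the methods' t-test, limma on 2 groups alone, slide and replicate number as blocks, the mean of probes and each rat left out. Keeping outlier spots was added after seeing the data. R 4.3.3, limma 3.58.1, data.table (version 1.17.8), Python 3.11.15 and matplotlib 3.10.9 were used.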

Additional observations from a re-analysis of the deposited data

How the results depend on the processing

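The calls rest on few arrays and on the scaling. In the order TBI vs. Sham, TBI vs. Naïve, Sham vs. Naïve and then PMI-006, JM6 and estradiol vs. TBI, the members called numbered 2, 3, 0, 3, 6 and 6. With normexp they numbered 0, 0, 0, 0, 3 and 1, with quantile normalization 2, 2, 0, 0, 1 and 0, with the percentile over all probes 3, 3, 0, 1, 1 and 1, and in the authors' matrix 3, 2, 0, 0, 1 and 0. The calls against TBI under these last 3 scalings were all C1qb, lower in the drug group. With the percentile of the probes above background all calls were higher. The columns of the authors' matrix share one distribution, so it and quantile normalization are not separate checks. Without a filter the counts were 1, 1, 0, 2, 6 and 6 of 8 members, since Serping1 has no value there. With probes above background on all 16 arrays, which leaves out Serping1 and Cd55, they were 2, 2, 1, 2, 5 and 5. The methods' t-test gave 0, 0, 0, 0, 2 and 1 after adjustment, and 1, 4, 1, 0, 6 and 1 at an unadjusted p under 0.05 and over 1.2-fold. Limma on 2 groups alone gave 0, 0, 0, 0, 6 and 4, and a fixed slide term gave 0, 0 and 0 in the first 3, which lie in 1 session. The cause was not tested. The share of all probes called changes with the setting too, so these counts and those below are no result about the members alone. In the main fit 56.7%, 69.9% and 70.2% of all probes were called higher with PMI-006, JM6 and estradiol vs. TBI. After quantile normalization 19.2%, 27.2% and 20.4% were called in either direction. Reversed values were near 0: Cd55 in TBI+PMI vs. TBI (-0.010) and C2 in TBI+E33 vs. TBI (-0.019) under quantile normalization, and the latter in the authors' matrix (-0.008).

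With 1 rat left out, the counts ran from 1 to 3, 1 to 3, 0 to 1, 0 to 3, 5 to 7 and 2 to 7. The lowest was reached without Sham 1, TBI 2 or TBI 3 in TBI vs. Sham, without Naïve 1, Naïve 3, TBI 2 or TBI 3 in TBI vs. Naïve, without TBI 1 in TBI+PMI vs. TBI and without TBI+E33 2 in TBI+E33 vs. TBI. A group left with 1 array was assumed to vary like the others. Over all probes tested, same-numbered rats did not deviate together (r from -0.185 to 0.183 over 36 pairs). For C5ar1 and C1s, though, the rat numbered 1 had the lowest level in every group. Whether the number stands for a pairing is not stated and was not tested. With the replicate number as a block 3, 3, 0, 5, 7 and 7 members were called. The pairs of drug groups had 0 calls in every fit. Over 1521 single values, 1283 kept direction and call, 138 lost a call, 29 gained one, 3 reversed and 68 uncalled values changed sign.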

Other observations

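Choroid plexus markers varied between rats of one group. Summed over the 6 markers tested, Naïve 2 had 77.59 and the other Naïve arrays 2.982 and 2.354. Sham 1 had 123.4 and Sham 2 4.92, while the TBI arrays had 3.549, 0.4856 and 0.1964. TBI+PMI 1 had 153, TBI+PMI 2 7.636 and TBI+PMI 3 0.3027. The TBI+JM6 and TBI+E33 arrays lay between 0.4362 and 1.83. The 3 highest arrays fell in different groups.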
